A study of Mus musculus with 17 samples.

Results

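Collagen chains outside type IV, together with the enzymes that modify, fold, trim and crosslink them, were followed in the mouse podocyte line E11 on 3 kinds of silicone surface. The set was taken by symbol: every protein-coding gene named Col, a number, the letter a and a number, with the type IV chains left out, and 14 processing genes, namely P4ha1, P4ha2, P4hb, Plod1, Plod2, Plod3, Serpinh1, Bmp1, Pcolce, Lox, Loxl1, Loxl2, Loxl3 and Loxl4. That gave 52 of the 56748 genes in the count table, 38 collagens and 14 processing genes. All libraries came from the same line on polydimethylsiloxane (PDMS), with no genetic change or drug named. NT cells (5 libraries) grew without topography. RT cells (6 libraries) grew on a round, non-fractal topography, and HF cells (6 libraries) on a high fractal topography drawn from tracings of healthy glomeruli in histology. NT and RT served as the flat and the textured non-fractal control. What sets one replicate apart from another was not stated, so a p-value here speaks of library-to-library spread, part or all of which may be technical.

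Collagens are secreted proteins of 3 chains wound into a triple helix, which requires a glycine at 1 residue in 3. Prolyl hydroxylases (P4ha1, P4ha2 and their shared partner P4hb) and lysyl hydroxylases (Plod1, Plod2, Plod3) modify the chains in the endoplasmic reticulum, where the chaperone Serpinh1 (Hsp47) binds the folded helix. After secretion Bmp1, helped by Pcolce, removes the C-propeptides of fibrillar procollagens, and lysyl oxidases (Lox and Loxl1 to Loxl4) crosslink collagen and elastin. In the glomerulus the podocyte contributes mainly type IV collagen to the basement membrane. Type XVIII collagen, a heparan sulfate proteoglycan whose C-terminal fragment is endostatin, also lies in basement membranes.

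The coding sequences showed what the collagens shared and the processing genes lacked. In GENCODE M21 transcripts, all 38 collagens held an unbroken run of 6 or more repeats of 3 codons that each open with an in-frame glycine codon (GGN), and 0 of the 14 processing genes did. The longest run had 23 to 344 repeats among the collagens (median 61) and 1 to 4 among the processing genes. A stretch of 30 codons from the start of the longest run is given for the chains with the largest share of the results, with the glycine codon that opens each repeat in capitals (other glycine codons stay in lower case): codons 953 to 982 of Col18a1, 559 to 588 of Col5a1, 352 to 381 of Col8a1 and 168 to 197 of Col1a1.
Col18a1: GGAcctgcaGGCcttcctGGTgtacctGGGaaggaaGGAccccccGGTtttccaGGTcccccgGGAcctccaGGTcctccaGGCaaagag
Col5a1: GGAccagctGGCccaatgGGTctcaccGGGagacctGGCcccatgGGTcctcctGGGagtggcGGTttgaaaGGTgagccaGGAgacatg
Col8a1: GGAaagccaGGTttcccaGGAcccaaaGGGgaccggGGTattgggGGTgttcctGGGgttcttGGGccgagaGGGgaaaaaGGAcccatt
Col1a1: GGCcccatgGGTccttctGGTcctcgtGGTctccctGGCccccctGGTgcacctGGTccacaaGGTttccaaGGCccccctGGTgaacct
In the fibrillar chains Col1a1, Col5a1 and Col11a1 the run went on for 338 repeats. In Col8a1, a short chain that forms hexagonal networks, the longest run held 61 repeats and 62.1% of its 744 codons lay in such runs. In Col18a1 the longest run held 30 repeats, of which the stretch shows the first 10, and 27.9% of 1774 codons lay in 13 separate runs.

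E11 cells carried a narrow set of these collagens and most of the 14 processing genes chosen here. Levels between genes are compared here as CPM (counts scaled to a common library size, with TMM factors) per kilobase of exon, averaged over all 17 libraries. At 10 CPM per kb or more stood 17 genes, 6 of the 38 collagens and 11 of the 14 processing genes. Col18a1 was the highest, at 457 CPM per kb, and supplied 67.9% of all collagen counts outside type IV (65.2% to 70.2% by library). Col6a1, a chain of the beaded microfibrils of type VI collagen, followed among the collagens at 118 CPM per kb, then Col5a1 at 34.9, Col8a1 at 24.3, Col6a2 at 16.5 and Col5a2 at 13.7. Col1a1, the main chain of type I collagen, stood at 6.15 CPM per kb. Among the processing genes, Serpinh1 reached 324 CPM per kb, P4hb 240.4, Pcolce 202, P4ha1 162 and Loxl1 123. Loxl2 at 1.77 and Loxl4 at 0.205 CPM per kb were the lowest of the lysyl oxidases, and Plod1 at 4.14 was the lowest of the lysyl hydroxylases. The remaining tested collagens lay between 4.94 (Col11a1) and 0.0491 (Col27a1) CPM per kb. The order of neighbours depends on the length used. Per kb of the longest transcript, Col8a1 (37.2) stood above Col5a1 (35.3), Col6a2 reached 27.9, Pcolce (299.9) stood above P4hb (240.4), Col6a1 (126) above Loxl1 (123) and Col11a1 (8.21) above Col1a1 (6.80), while Col18a1 and Serpinh1 stayed the highest.

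**Figure D1:**
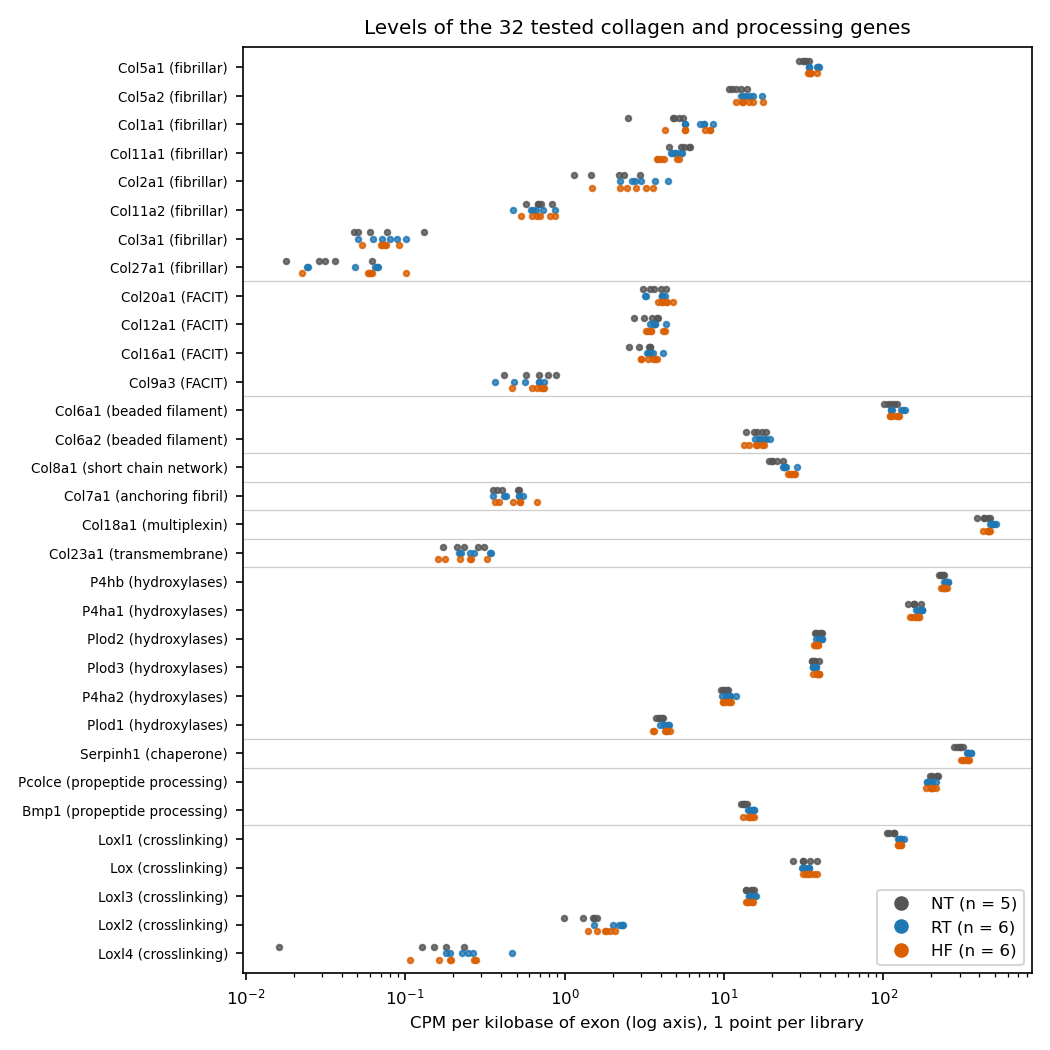
Levels of the 32 tested genes in each library, as CPM per kilobase of exon on a log axis with 1 row per gene, grouped by structural class; points are libraries, coloured by surface. Col18a1 lies above every other collagen on each surface, and for most genes the libraries of the 3 surfaces overlap.

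Several chains that are known to assemble with others were found without most of their partners. Type VI collagen is built from Col6a1, Col6a2 and 1 further chain, of which Col6a3 had 52 counts in all 17 libraries together, Col6a4 22, Col6a6 4 and Col6a5 0. For Col6a5, the limit of 3 counts per library comes to 0.125 CPM in the deepest and 0.201 CPM in the shallowest library, for counting error only. Col6a1 exceeded Col6a2 per kb of exon 6.93-fold ± 0.401 (SD, n = 5) in NT, 7.04-fold ± 0.241 (n = 6) in RT and 7.50-fold ± 0.499 (n = 6) in HF. With the length of the longest transcript in place of all exon bases the means were 4.37, 4.44 and 4.73, so the size of this ratio depends on the length used. Col1a2, the usual partner of Col1a1, had 26 counts over all libraries, while Col1a1 averaged 30.1 CPM in NT, 45.9 in RT and 43.4 in HF. Type V collagen had both common chains. Col5a1 exceeded Col5a2 per kb of exon by 2.65-fold ± 0.189 (SD, n = 5) in NT, 2.62-fold ± 0.363 (n = 6) in RT and 2.51-fold ± 0.371 (n = 6) in HF, and Col5a3 had 38 counts. For Col8a1 the sister chain Col8a2 had 20 counts, and of type IX collagen only Col9a3 passed the filter on low counts, with 2 counts for Col9a1 and 41 for Col9a2.

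**Figure D2:**
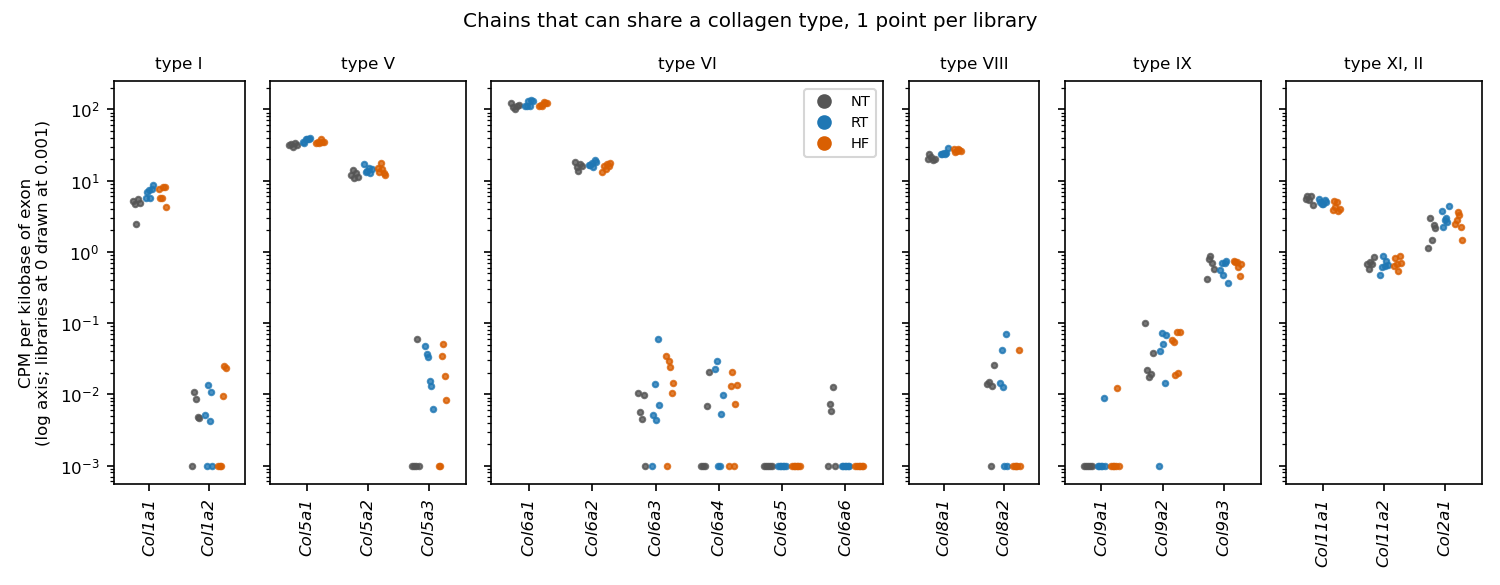
CPM per kilobase of exon of the chains of collagen types I, V, VI, VIII, IX and XI (with the type II chain, a known partner) in each library on a log axis, by surface; libraries without a count are drawn at the bottom of the axis. Col1a2, Col5a3, Col6a3 and Col8a2 stay far under their partner chains on all 3 surfaces.

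In all, 20 of the 52 genes did not pass the filter on low counts, and all 20 were collagens. They were Col1a2, Col5a3, Col6a3, Col6a4, Col6a5, Col6a6, Col8a2, Col9a1, Col9a2, Col10a1, Col13a1, Col14a1, Col15a1, Col17a1, Col19a1, Col22a1, Col24a1, Col25a1, Col26a1 and Col28a1. Of these, 17 never exceeded 7 counts in a library. Only Col10a1 (109 counts) and Col17a1 (142 counts) had a count in all 17 libraries, and the highest group mean among the 20 was 0.607 CPM, for Col17a1 in NT. No comparison was made for them in the main fit. An alternative fit with no filter beyond 1 count took in all of them but Col6a5, and it called none of them in any comparison. At these counts a difference between surfaces could easily be missed.

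On the textured surfaces some of these genes had more RNA than on the flat one, by modest amounts, and none that passed the test was lower. Of the 32 tested genes, 3 rose in HF against NT, namely Col8a1, Loxl1 and Serpinh1, 0 fell and 29 did not pass (edgeR quasi-likelihood test, Benjamini-Hochberg adjusted p under 0.05 over 15196 genes). Over all genes tested, 2.33% passed in that comparison, 1.5% higher and 0.829% lower. In RT against NT 7 of the 32 rose (those 3 and Col5a1, Col18a1, Bmp1 and Loxl2), 0 fell and 25 did not pass, where 3.97% of all genes passed, 2.53% higher and 1.44% lower. The median log2 difference of the 32 was 0.09 in HF against NT and 0.13 in RT against NT, beside medians of -0.00 in both for all genes tested. The estimate was above 0 for 25 of 32 and 27 of 32, or 78.1% and 84.4%, beside 49.0% and 49.1% of all genes tested. At an unadjusted p under 0.05 stood 10 higher and 1 lower in HF against NT, where 7.61% and 6.63% of all genes did (14.2% together), and 15 higher and 1 lower in RT against NT, where 9.11% and 8% did (17.1% together). Both comparisons use the same 5 NT libraries, so these figures are not independent of each other. The 20 untested collagens are outside these counts.

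The order of the group means was similar for many members. NT had the lowest mean for 22 of the 32 tested genes and RT the highest for 22, and for 17 the HF mean lay between a lower NT and a higher RT mean. These counts draw on the same libraries and were not made over all genes. Whether this order is particular to the members was therefore not tested. As a share of all counts, the 52 genes took 0.848% ± 0.0289 in NT (SD, n = 5; 0.814% to 0.878%), 0.923% ± 0.0143 in RT (n = 6; 0.901% to 0.938%) and 0.882% ± 0.0169 in HF (n = 6; 0.852% to 0.900%). The RT libraries all lay above the NT libraries in this share, and the HF libraries overlapped NT and lay just under the lowest RT library. Col18a1 alone made up a large part of the share, with means of 3043 CPM in NT, 3402 in RT and 3156 in HF. The 14 processing genes, without any collagen, took 0.403% in NT, 0.426% in RT and 0.415% in HF. In bulk RNA, fewer cells making a transcript and less of it per cell cannot be told apart.

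Col8a1, the network-forming chain, differed most from NT among the collagens that passed. It stood at 157, 184, 168, 151 and 156 CPM in NT 1 to NT 5, at 185 to 223 CPM in RT (median 188) and at 197 to 217 CPM in HF (median 209). Every library of both textured groups was above every NT library, and the RT range was widened by RT 6 at 223 CPM. The rise was 0.35 ± 0.05 on the log2 scale in HF against NT (SE; 27.8%; adjusted p = 0.000130) and 0.25 ± 0.05 in RT against NT (18.7%; adjusted p = 0.00301), by edgeR. In HF it was the only collagen of the 18 tested that passed.

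Col5a1, which starts and limits fibrils of type I collagen, rose in RT. Its NT values were 266, 277, 251, 291 and 268 CPM, its RT values ran from 290.3 to 334 CPM (median 328) and its HF values from 287 to 323 CPM (median 294). In RT only the lowest libraries, RT 1 and RT 2, came near the top of NT, where NT 4 at 291 CPM lay just inside the RT range. The RT difference was 0.23 ± 0.04 (SE, log2; 17.4%; adjusted p = 0.000764). In HF against NT it was 0.14 with a 95% interval of 0.05 to 0.22 and an adjusted p of 0.0777, which did not pass; without NT 4 it was 0.0374.

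Col18a1 rose in RT as well, from the highest level of any collagen here. The NT libraries held 2727, 3284, 2998, 3187 and 3017 CPM, RT ran from 3258 to 3574 CPM (median 3384) and HF from 2942 to 3280.2 CPM (median 3170.1). NT 2 was above the lowest RT library, so the groups overlapped, and HF lay wholly within the NT range. RT exceeded NT by 0.16 ± 0.04 (SE, log2; 11.8%; adjusted p = 0.0154), and without RT 4 the adjusted p was 0.0524. In HF against NT the difference was 0.05 with a 95% interval of -0.03 to 0.13.

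**Figure D3:**
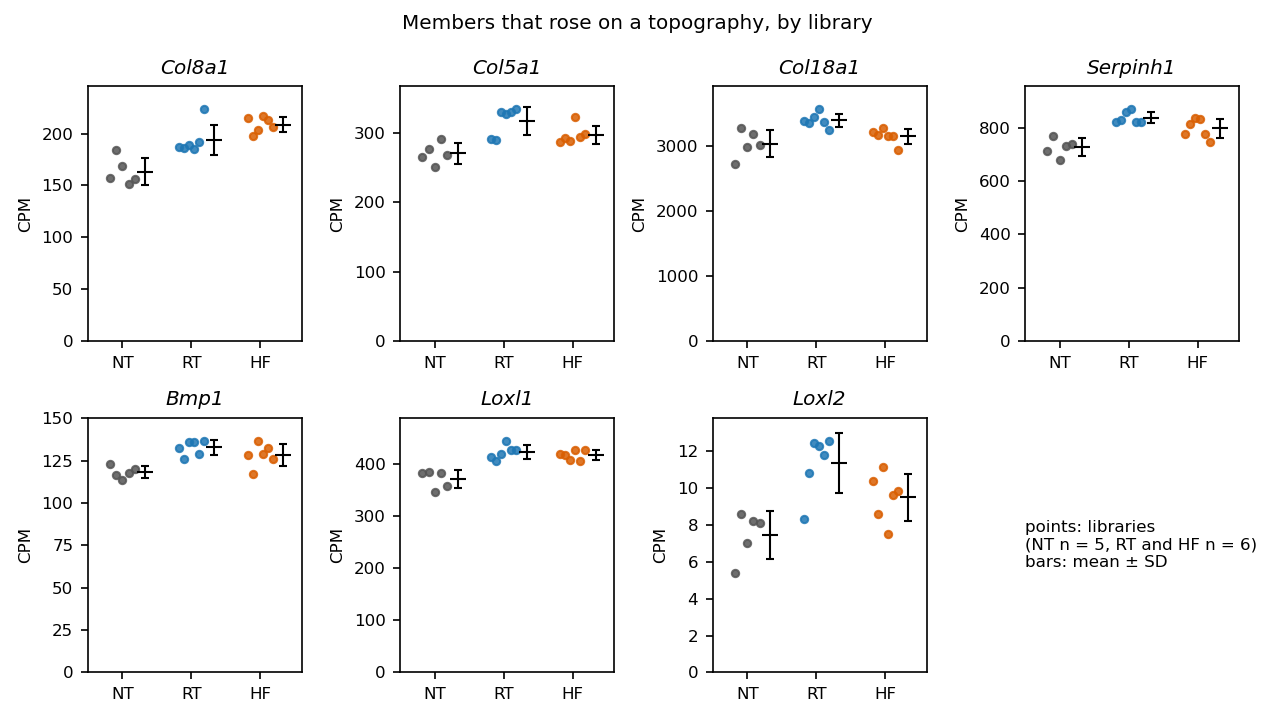
CPM in every library of the 7 genes that passed in at least 1 comparison, 1 panel per gene, with group means and SD (NT n = 5, RT n = 6, HF n = 6). For Col8a1 and Loxl1 all RT and HF points lie above all NT points, and for Loxl2 and Col5a1 the RT mean is the highest.

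Serpinh1, the collagen chaperone, was higher in both textured groups. It stood at 711, 769.8, 679, 733 and 739.7 CPM in NT, at 819.7 to 869.6 CPM in RT (median 827) and at 746 to 836 CPM in HF (median 797). RT lay wholly above NT, and HF overlapped NT at its lower end. The rise in RT was 0.21 ± 0.04 (SE, log2; 15.3%; adjusted p = 0.000492). The rise in HF was 0.13 ± 0.04 (9.76%; adjusted p = 0.0363), and it lost the threshold when NT 1, NT 3 or NT 4 was left out, or HF 2, HF 3 or HF 4, 1 at a time (0.0528 to 0.143 after adjustment) and in a fit of NT and HF alone (adjusted p = 0.105).

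Bmp1, the procollagen C-proteinase, rose in RT. NT held 123, 116, 114, 118 and 120.0 CPM, RT 126 to 137 CPM (median 134) and HF 117 to 136 CPM (median 128.5). All RT libraries were above all NT libraries, and HF overlapped both. The difference was 0.17 ± 0.04 (SE, log2; 12.3%; adjusted p = 0.00518) in RT, and 0.12 (95% interval 0.04 to 0.19; adjusted p = 0.0877, and 0.0266 without HF 2) in HF against NT. Pcolce, the enhancer of this cleavage, averaged 803 CPM ± 40.0 in NT (SD, n = 5), 754 ± 38.3 in RT (n = 6) and 763 ± 37.0 in HF (n = 6) and did not pass in either comparison, with estimates of -0.09 and -0.07.

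Of the 5 lysyl oxidases, Loxl1 rose on both textures and Loxl2 in RT. Loxl1, which is best known for crosslinking elastin, stood at 383, 385, 346, 382 and 358 CPM in NT, at 405 to 445 CPM in RT (median 423) and at 406 to 427 CPM in HF (median 418). All 12 textured libraries were above all 5 NT libraries. The rises were 0.19 ± 0.03 in RT (SE, log2; 1.14-fold; adjusted p = 0.000576) and 0.17 ± 0.03 in HF (1.13-fold; adjusted p = 0.00303). Loxl2, which acts on basement membrane type IV collagen, had 5.38, 8.60, 7.03, 8.23 and 8.10 CPM in NT, 8.32 to 12.6 CPM in RT (median 12.1) and 7.53 to 11.1 CPM in HF (median 9.73). RT 1, the lowest RT library, fell inside the NT range, and the other 5 lay above it. The RT difference was 0.62 ± 0.12 (SE, log2; 1.53-fold; adjusted p = 0.00133) and the HF difference 0.35 (95% interval 0.11 to 0.59; adjusted p = 0.126). In GENCODE M21 43.5% of the 100-base windows of the longest Loxl2 transcript also occur in other gene models (Gm16867, Gm21451, Gm27177 and Gm45509), so its counts are uncertain. Lox itself, with 155 CPM ± 19.8 in NT (SD, n = 5), 157 ± 6.75 in RT (n = 6) and 165 ± 12.3 in HF (n = 6), and Loxl3 and Loxl4 did not pass in any comparison.

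Counted against libraries rather than the test, 5 of the 32 genes had every RT library above every NT library (Col8a1, Loxl1, Serpinh1, Bmp1 and Col1a1), where 2.18% of all genes did, and 0 had every RT library below (1.22%). In HF 2 genes, Col8a1 and Loxl1, stood wholly above NT (1.25% of all genes) and 0 below (0.934%).

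Col1a1 was the member of that group that did not pass. It had 34.4, 31.3, 16.4, 36.5 and 32.01 CPM in NT, 37.2 to 56.3 CPM in RT (median 47.5) and 28.1 to 53.9 CPM in HF (median 43.6). NT 3 stood far under the other NT libraries. The RT difference was 0.62 on the log2 scale (95% interval 0.17 to 1.07; adjusted p = 0.134), and without NT 3 it was 0.46 (adjusted p = 0.253). It was called by limma voom (adjusted p = 0.0230) and by edgeR without robust estimation (adjusted p = 0.0240). In HF the difference was 0.53 (95% interval 0.08 to 0.99; adjusted p = 0.255). Col2a1, the chain of cartilage type II collagen, averaged 18.7 CPM ± 6.72 in NT (SD, n = 5), 28.9 ± 7.50 in RT (n = 6) and 24.4 ± 6.98 in HF (n = 6), and did not pass (0.64, 95% interval 0.07 to 1.22, adjusted p = 0.226 in RT against NT).

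Col11a1, a minor fibrillar chain related to Col5a1, had the lowest estimate of the 32 in HF against NT. NT held 71.5, 78.1, 68.2, 77.2 and 57.7 CPM, RT 59.1 to 69.4 CPM (median 63.6) and HF 48.4 to 66.1 CPM (median 52.7). HF overlapped NT through NT 5, the lowest NT library. The difference was -0.34 (95% interval -0.54 to -0.14; adjusted p = 0.0708), and it passed when NT 5, HF 2 or HF 4 was left out (0.0161 to 0.0421 after adjustment). It also passed with DESeq2, with limma voom and with edgeR without robust estimation (adjusted p = 0.0156 in the last). Col5a1 and Col11a1 thus had estimates of opposite sign against NT in both textures, and no test of the difference between these genes was made.

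The hydroxylases gave 0 of 6 genes past the threshold with edgeR in each of the 3 comparisons, with 0 at an unadjusted p under 0.05 in HF against NT, 2 in RT against NT and 3 in HF against RT, where 14.2%, 17.1% and 8% of all genes stood. DESeq2 called P4ha1 and P4hb in RT against NT and 0 elsewhere, and limma voom called P4hb in RT against NT. P4ha1, the catalytic subunit of prolyl 4-hydroxylase, averaged 641 CPM ± 44.2 in NT (SD, n = 5), 700.1 ± 24.5 in RT (n = 6) and 651 ± 34.3 in HF (n = 6), with 0.13 in RT against NT (95% interval 0.04 to 0.21; adjusted p = 0.0702, and 0.0130 without NT 2). P4hb, which also acts as protein disulfide isomerase, had 0.10 (95% interval 0.03 to 0.16; adjusted p = 0.0815, and 0.0208 without NT 5) in the same comparison. In HF against NT the 6 estimates ran from -0.06 (Plod2) to 0.06 (Plod3), and all 6 intervals included 0. Plod2, which hydroxylates lysines in the telopeptides, averaged 212 CPM in NT, 214 in RT and 203 in HF.

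Among the remaining collagens with tests, Col6a1 had estimates of 0.14 (95% interval 0.01 to 0.26; adjusted p = 0.248) in RT and 0.08 (-0.05 to 0.21) in HF against NT. Col20a1, a collagen of the fibril-associated class, had 0.05 (-0.12 to 0.22) and 0.19 (0.02 to 0.36; adjusted p = 0.261). Col7a1, the anchoring fibril chain, had 0.10 (-0.21 to 0.40) and 0.18 (-0.13 to 0.49), and the transmembrane Col23a1 had 0.17 (-0.30 to 0.65) and -0.07 (-0.56 to 0.42). These wider intervals belong to genes of low counts: Col7a1 averaged 4.45 to 5.06 CPM and Col23a1 1.34 to 1.58 CPM by group.

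**Figure D4:**
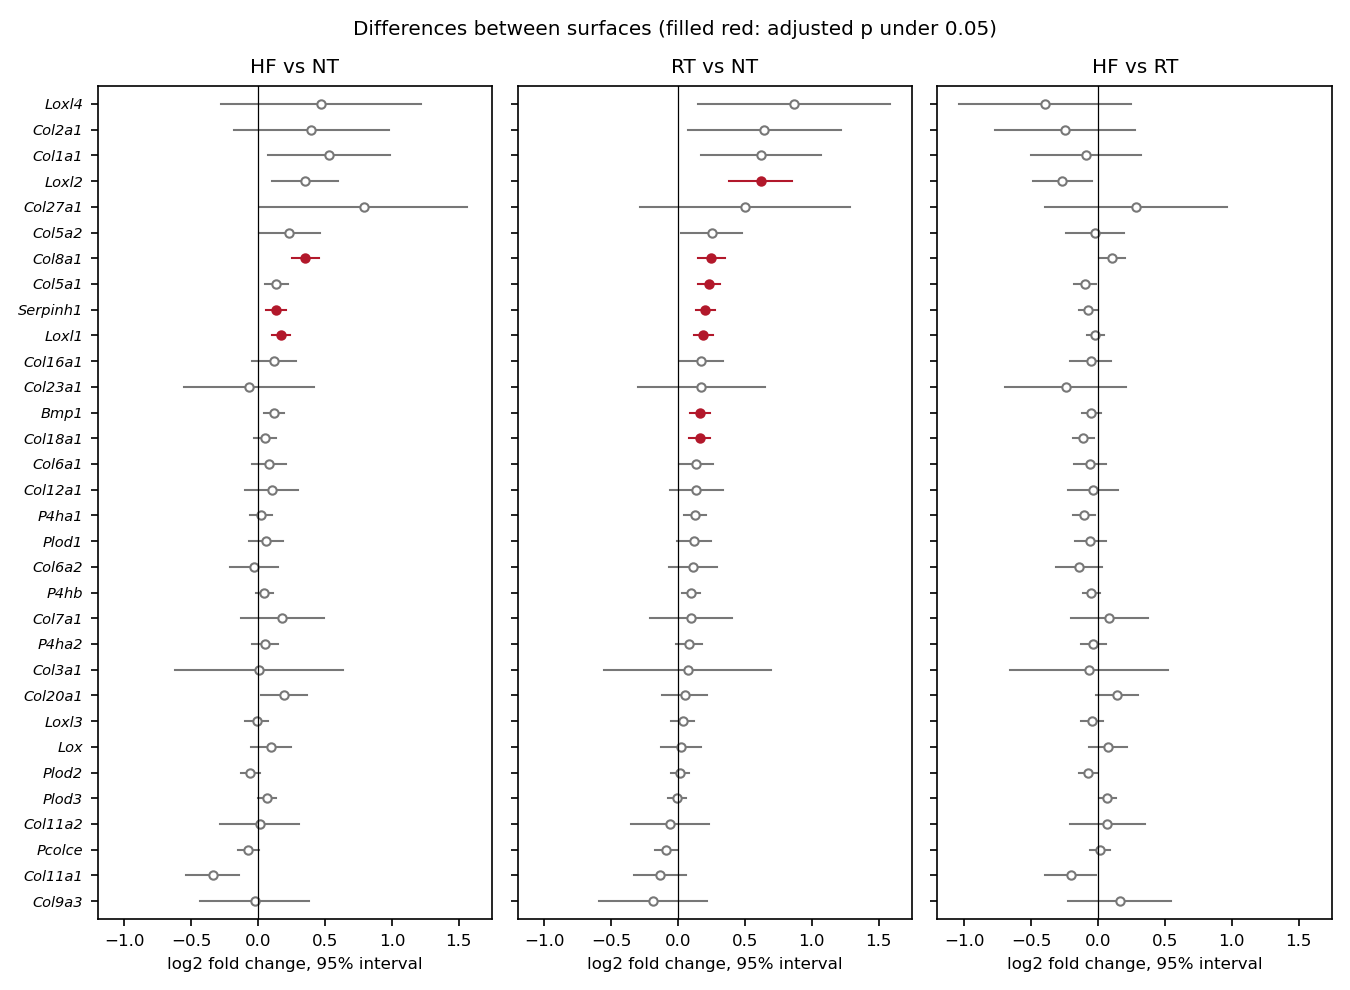
Log2 differences with 95% intervals for the 32 tested genes in HF against NT, RT against NT and HF against RT; filled points passed the adjusted threshold. Against NT the estimates lie mostly right of 0 (25 and 27 of 32), and in HF against RT 23 lie left of 0 with no filled point.

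Between the 2 textures no member passed the test. In HF against RT 0 of the 32 passed with edgeR, where 0.211% of all genes did (0.132% higher, 0.079% lower), and DESeq2 and limma voom also called 0. At an unadjusted p under 0.05 stood 9 of the 32, where 8% of all genes did: 2 higher in HF (Col8a1 and Plod3; 3.74% of all genes) and 7 lower (4.26% of all genes; Col18a1, P4ha1, Loxl2, Col5a1, Plod2, Col11a1 and Serpinh1). For 0 of the 32 did the HF and RT libraries lie apart, in either direction, beside 0.447% of all genes wholly higher and 0.52% wholly lower in HF. The median was -0.05, beside -0.00 for all genes, and 9 of the 32 estimates (28.1%) were above 0, beside 49.6% of all genes tested. For Col18a1 the difference was -0.11 (95% interval -0.19 to -0.03; adjusted p = 0.339) and for Loxl2 -0.27 (-0.49 to -0.05; adjusted p = 0.474). For Col8a1 it was 0.11 (0.01 to 0.20; adjusted p = 0.528), for Col5a1 -0.09 (-0.18 to -0.01), for Serpinh1 -0.07 (-0.14 to -0.00), for Bmp1 -0.05 (-0.12 to 0.02) and for Loxl1 -0.02 (-0.08 to 0.05). So the genes that passed in RT alone (Col5a1, Col18a1, Bmp1 and Loxl2) were not shown to differ between the 2 textures after adjustment.

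Promoter sequence was at hand for 38 of the 52 symbols (41 entries, RefSeq, GRCm38.p6), among them 4 of the 7 genes that passed. The 250 bases before the start are shown for 3 of these whose window holds no exon, with GC boxes (GGGCGG on either strand) in capitals: Col8a1 at chr16:57754738-57754987 on the minus strand, Serpinh1 at chr7:99353240-99353489 on the minus strand and Col5a1 at chr2:27886175-27886424 on the plus strand.
Col8a1: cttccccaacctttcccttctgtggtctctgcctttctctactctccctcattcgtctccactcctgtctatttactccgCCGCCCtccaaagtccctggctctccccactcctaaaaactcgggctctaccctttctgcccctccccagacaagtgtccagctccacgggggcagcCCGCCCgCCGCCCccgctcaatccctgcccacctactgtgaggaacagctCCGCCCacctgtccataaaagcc
Serpinh1: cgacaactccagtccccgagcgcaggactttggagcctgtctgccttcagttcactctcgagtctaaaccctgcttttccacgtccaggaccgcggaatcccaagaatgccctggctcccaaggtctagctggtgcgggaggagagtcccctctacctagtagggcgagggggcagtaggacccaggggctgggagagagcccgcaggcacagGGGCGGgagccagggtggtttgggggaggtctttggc
Col5a1: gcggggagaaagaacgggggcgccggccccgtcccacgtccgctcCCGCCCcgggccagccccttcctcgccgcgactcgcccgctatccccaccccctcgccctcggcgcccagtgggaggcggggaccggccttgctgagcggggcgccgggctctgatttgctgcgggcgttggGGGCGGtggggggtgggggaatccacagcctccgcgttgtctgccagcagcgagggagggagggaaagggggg
Col8a1 held 4 GC boxes, starting 170, 73, 66 and 23 bases before the gene start, Serpinh1 held 1 at 37 bases and Col5a1 held 2, at 205 and 73 bases. A GC box was found in 26 of the 41 entries (63.4%), beside 32.7% of all 32851 promoter windows of that length. The TATA box (TATAAA) stood in 14.6% of the 41 and 12.4% of all, the TEAD motif (GGAATG) in 9.76% and 12.6%, and the AP-1 motif (TGANTCA) in 2.44% and 6.75%, on either strand. The heat shock element searched (GAANNTTC) was in 0 of the 41 and in 6.69% of all windows, and the CArG box in 1 of the 41 and in 1.47% of all. These matches describe letters in the windows only.

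Of 40 tested genes in 4 further lists of collagen handling, 2 passed in HF against NT and 3 in RT against NT, all higher, where 2.33% and 3.97% of all genes passed. Among 24 further biosynthesis genes Adamts2, Adamts3, Colgalt2 and Tll2 were at or near 0 CPM and were not tested. The other 20 were tested and 1 rose in each texture against NT. It was Adamts14, a procollagen N-proteinase, at 5.00 CPM ± 0.972 in NT (SD, n = 5), 7.78 ± 1.46 in RT (n = 6) and 7.87 ± 0.184 in HF (n = 6), with all RT and HF libraries above NT. The differences were 0.62 ± 0.13 in RT (SE, log2; adjusted p = 0.00216) and 0.65 ± 0.13 in HF (adjusted p = 0.00268). Of 12 genes of collagen breakdown and its inhibitors 7 were tested. The gelatinase gene Mmp2 rose in HF (0.16 ± 0.04; adjusted p = 0.0197) and RT (0.15 ± 0.04; adjusted p = 0.0221), and Mmp14, whose membrane-bound product activates the Mmp2 protein, rose in RT (0.14 ± 0.03; adjusted p = 0.00577). The Mmp2 calls were lost without NT 3 in both comparisons (adjusted p 0.0940 in HF and 0.109 in RT). The HF call was also lost without HF 4 (0.0704) and in a fit of NT and HF alone (0.0557). The RT call was also lost without RT 3, RT 4 or RT 6 (0.0557 to 0.0599) and with replicate numbers 1 to 5 only (0.0665). Timp1, an inhibitor of these proteases that was picked out after its values were seen, averaged 40.8 CPM ± 2.81 in NT (SD, n = 5), 35.8 ± 3.65 in RT (n = 6) and 35.2 ± 1.87 in HF (n = 6), with every HF library below every NT library. Its log2 difference was -0.21 in HF against NT (95% interval -0.34 to -0.09; adjusted p = 0.0517) and -0.18 in RT against NT (-0.31 to -0.06; adjusted p = 0.0799), and neither passed. In HF against NT it was called with DESeq2, with total count scaling, with no filter beyond 1 count, with the replicate block, and without NT 2 or NT 4. In RT against NT it was called with no filter beyond 1 count, with the block and without RT 5. Of 10 collagen receptors 8 were tested and 0 passed, and of 7 fibril-binding proteoglycans 5 were tested and 0 passed. At an unadjusted p under 0.05 stood 1 receptor and 2 proteoglycans in HF against NT, where 14.2% of all genes did. In RT against NT 1 receptor and 3 proteoglycans did, beside 17.1% of all genes. DESeq2 and limma voom also called 0 receptors, and in RT against NT DESeq2 called the proteoglycans Bgn and Ogn and limma voom called Ogn. In HF against RT 0 genes of the 4 lists passed with edgeR, and DESeq2 and limma voom also called 0.

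Across the series, totals ran from 14.9 M to 24.1 M counts, RT 5 and RT 6 being the deepest. The podocyte label was met in part. Synpo averaged 282 CPM, Podxl 131 and Wt1 115 in NT, Nphs1 stood at 3.96 CPM, and Ptpro was at or near 0. Wt1 fell by 0.16 in HF (adjusted p = 0.0113) and by 0.24 in RT against NT (adjusted p = 6.16e-05). The 9 fibroblast and mesangial markers summed to 465 to 515, 462 to 486 and 480 to 512 CPM, nearly all from Pdgfrb. Of these markers 6 were tested and 0 passed in any comparison. At an unadjusted p under 0.05 stood 2 in HF against NT, 1 in RT against NT and 2 in HF against RT. The shares of all genes were 14.2%, 17.1% and 8%. Endothelial markers summed to at most 1.15 CPM in a library. Of the 4 leukocyte markers Adgre1 had no count and Ptprc was at or near 0, while Csf1r rose in RT, from 39.4 CPM in NT to 50.8 (log2 0.36; adjusted p = 0.00385), with 45.8 CPM in HF, so the summed level was 38.1 to 43.1 in NT, 47.0 to 59.3 in RT and 41.0 to 55.4 CPM in HF. The 8 tubular markers, 4 of them above 1 CPM, summed to 1422 to 1779, 1521 to 1713 and 1463 to 1811 CPM. The part of Csf1r or Wt1 in the collagen results was not tested.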

How the data were processed

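RNA from E11 cells was measured in 17 libraries by poly-A RNA-seq with paired reads from non-directional libraries, per the labels' protocols. The deposited values are raw counts per gene and library, made by the authors without normalization. The submitters' processing notes name CASAVA, HISAT2 2.0.5, featureCounts 1.5.0-p3 and GRCm39; the role of each, the annotation and the strand setting are not given in the sources used here, so reads of overlapping and antisense genes cannot be told apart. Symbols, exon lengths and coding sequences came from GENCODE M21 and promoters from RefSeq, both on GRCm38, so the only positions printed are those of the RefSeq promoter windows, on GRCm38.p6.

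Genes were filtered by filterByExpr on the groups (15196 of 56748 kept), scaled by TMM and tested in edgeR 4.0.16 (R 4.3.3; quasi-likelihood F test, robust, 1 fit of all 3 groups, no covariate). The p-values are two-sided, with Benjamini-Hochberg adjustment across all 15196 genes and a threshold of 0.05. A standard error is the log2 fold change over the root of its F value, intervals are 95%, and CPM use TMM-scaled totals. The common biological coefficient of variation was 0.0603. Totals of 14.9 M to 24.1 M counts per library set the precision. Alternatives were DESeq2 1.42.0, voom in limma 3.58.1, other scalings, no filter beyond 1 count, no robust estimation, fits of 2 groups, the replicate number as a block, and each library left out. A fit with replicate numbers 1 to 5 only, and all alternatives for the other pathway genes and for members outside the naming rule, were added after seeing the data.

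The members and gene lists were chosen with earlier results of these data known. Named with values were members past the threshold, the member of each structural class with the highest CPM per kb or the smallest p in HF against NT, and other pathway genes past the threshold. Col1a1, Col2a1, P4ha1, Plod2, Lox, Timp1, Sparc and Wt1, Csf1r and the other markers were given values after these were seen. A podocyte marker and the summed level of that list are not reported here.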

Additional observations from a re-analysis of the deposited data

Results flagged for a closer look

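In 8 of 105 sets of libraries (35 quantities on 3 surfaces), 1 library stood apart from the rest of its surface by more than a test for a single stray value (Dixon's) allows at 95%. Chance does this in about 1 of 20 such sets. Col8a1 was 223 CPM in RT 6, where the nearest RT library had 192. Col12a1, a fibril-associated collagen, was 66.0 CPM in RT 6, where the nearest had 56.0. Col16a1, of the same class, was 27.9 CPM in RT 5, beside 24.1. Col18a1 was 2942 CPM in HF 6, beside 3160 in the nearest, and the share of counts from all collagens of the set was lowest in the same library, at 0.444% beside 0.467%. Col5a1 was 323 CPM in HF 4, beside 298. Col1a1 was 16.4 CPM in NT 3, beside 31.3. Loxl4 was 1.96 CPM in RT 3, beside 1.12.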

How the results depend on the processing

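The counts of members past the threshold were 3 in HF against NT, 7 in RT against NT and 0 in HF against RT. In HF against NT the count was 5 with DESeq2, which added Bmp1 and, lower in HF, Col11a1, and 5 with no filter beyond 1 count, which added Col5a1 and Loxl2; over all genes 3.71% and 1.94% passed in these fits, beside 2.33% as reported. In HF against RT it was 1 with no filter beyond 1 count, Col18a1, lower in HF (adjusted p = 0.0483), where 0.480% of all genes passed, beside 0.211%. The cause of these changes was not tested. Leaving out 1 library at a time gave 2 to 4 in HF against NT, 6 to 8 in RT against NT and 0 in HF against RT in each of 12 fits. Of the 10 calls on members, 8 held in every alternative run; the exceptions are Serpinh1 in HF and Col18a1 in RT, given with their values in the report.

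The labels do not say what the shared replicate numbers mark, so the number was used as a block only in an alternative fit. Among 16 same-numbered pairs the correlation of deviations ran from -0.0111 to 0.193 (median 0.0459), with 2 above 0.1, beside a median of -0.0171 for 80 pairs of different number, and 8 of 17 libraries were closest to one of their own number. With the replicate number as a block the counts were 4, 9 and 0: Col5a1 passed in HF (adjusted p = 0.0281), and P4ha1 and P4hb passed in RT (0.00428 and 0.0261). Over all genes the block raised the calls too, from 2.33% to 4.19% in HF against NT, from 3.97% to 6.55% in RT against NT and from 0.211% to 0.823% in HF against RT.

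Estimates near 0 changed sign in 7 of 1235 gene values recomputed, all with 1 library left out: Col23a1 in HF against NT (0.036 without NT 5, 0.000802 without HF 2, 0.015 without HF 5; lowest -0.19), Col7a1 in HF against RT (-0.021 without HF 3; highest 0.16), Pcolce in HF against RT (-0.00297 without HF 6; highest 0.043), Col20a1 in RT against NT (-0.00550 without NT 2; highest 0.11) and Plod3 in RT against NT (0.017 without NT 5; lowest -0.022). The calls among other pathway genes, 2 in HF and 3 in RT against NT, were 4 and 6 with DESeq2, 5 and 8 with no filter beyond 1 count, and 4 and 6 with the block. The widest intervals belonged to Col27a1, Loxl4 and Col3a1, at 0.457 to 1.11 CPM by surface, and 20 collagens did not pass the filter of the main fit.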

Other observations

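Within a surface, the members differed widely in how far replicate libraries spread. The coefficient of variation of CPM, as the median over the 3 surfaces, was lowest for P4hb, at 2.65%, and reached 28.6% for Col2a1, 39.6% for Loxl4 and 41.6% for Col27a1. Loxl4 and Col27a1 are low-count genes, while Col2a1 averaged 18.7 to 28.9 CPM by surface. Sparc, a collagen-binding glycoprotein among the further biosynthesis genes, had every HF library below every RT library, with means of 1794 CPM ± 127 in HF and 2035 ± 65.5 in RT (SD, n = 6 each). Its log2 difference was -0.18 (95% interval -0.29 to -0.08; adjusted p = 0.177 by edgeR), which did not pass, and it was picked out after its values were seen.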
